A study of Mus musculus with 9 samples.

Results

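Immediate early genes are switched on within minutes of a stimulus from transcription factors already present in the cell. In the table of mRNA molecules counted here, 34 such genes and genes of the response to tissue dissociation were found by symbol, all 34 of those listed, among 23528 gene symbols, and they were followed through all 9 single cells of the series. The cells came from the paraventricular nucleus of the hypothalamus of C57Bl6/N mice aged 21 to 28 days, freed with papain and captured on a microfluidic chip. All 9 carry the label secretagogin-positive, after a calcium-binding protein, and are called cell 1 to cell 9 as in their labels. There was no second group, no treatment and no undissociated tissue, and no animal is named for any cell. The cells were therefore treated as 1 sample, and no p-value was computed.

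Most members encode transcription factors. Fos and Jun proteins pair through leucine zippers into AP-1, which binds AP-1 sites, and Egr and Nr4a proteins are a zinc-finger family and a family of orphan nuclear receptors that respond to the same kinase signals. Other members close the response again: Dusp proteins remove phosphate from the MAP kinases, Zfp36 and the Btg proteins promote decay of mRNA, and Nfkbia holds NF-kB in the cytoplasm. In neurons of the paraventricular nucleus Fos is widely used as a marker of activation by stress, and enzymatic dissociation induces the same genes in many cell types.

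A regulatory sequence shared by many of these genes is the cyclic AMP response element (CRE), bound by CREB. The 4 members with the most molecules that have a RefSeq promoter entry (GRCm38.p6) are shown with the 250 bases before the annotated start, 5′ to 3′ on the gene's strand. Capitals mark the CRE half-site TGACG, the full CRE TGACGTCA, the Egr site GCGNGGGCG and the TATA box TATAAA, searched on both strands, and neighbouring or overlapping matches run together in capitals.
Fos, chr12:85473640-85473889, plus strand: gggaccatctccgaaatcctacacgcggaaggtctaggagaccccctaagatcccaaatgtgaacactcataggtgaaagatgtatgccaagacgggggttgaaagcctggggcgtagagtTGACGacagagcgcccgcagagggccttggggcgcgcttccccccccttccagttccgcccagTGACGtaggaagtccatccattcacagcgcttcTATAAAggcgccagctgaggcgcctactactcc
Jun, chr4:95052223-95052472, minus strand: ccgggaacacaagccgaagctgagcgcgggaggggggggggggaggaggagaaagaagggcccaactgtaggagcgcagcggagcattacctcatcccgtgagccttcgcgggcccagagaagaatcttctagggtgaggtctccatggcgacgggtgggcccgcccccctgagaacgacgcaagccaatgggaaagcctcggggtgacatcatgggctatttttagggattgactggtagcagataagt
Fosb, chr7:19310046-19310295, minus strand: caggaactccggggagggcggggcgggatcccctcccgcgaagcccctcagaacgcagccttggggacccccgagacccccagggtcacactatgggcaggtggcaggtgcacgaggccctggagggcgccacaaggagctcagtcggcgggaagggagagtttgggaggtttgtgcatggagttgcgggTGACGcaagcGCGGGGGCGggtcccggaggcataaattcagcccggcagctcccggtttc
Dusp1, chr17:26508473-26508722, minus strand: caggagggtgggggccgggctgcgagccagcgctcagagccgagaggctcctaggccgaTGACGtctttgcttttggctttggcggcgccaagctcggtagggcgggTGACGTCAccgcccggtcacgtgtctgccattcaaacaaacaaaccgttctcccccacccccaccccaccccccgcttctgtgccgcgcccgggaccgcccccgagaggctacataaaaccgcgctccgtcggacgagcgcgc
Fos held 2 half-sites and a TATA box, Fosb a half-site and an Egr site, and Dusp1 a full CRE and a further half-site, while none of these letters was in the Jun window. Of the 34 promoter entries that 29 members have, 19 (55.9%) held the CRE half-site, against 17.8% of all 32851 promoter windows of this length, and the half-site includes the full CRE. The Egr site was in 9 (26.5%) against 4.70%, the full CRE in 2 (5.88%) against 1.55%, the TATA box in 6 (17.6%) against 12.4%, and the AP-1 site TGANTCA in 0 against 6.75%. The CArG box, bound by SRF and searched on both strands, was in 5 entries (14.7%) of 2 members, Egr2 and Zfp36, against 1.47%. The members' windows were richer in G and C, with a median of 64.6% against 52.4%. Of the 5693 windows between 59.4 and 68.3% G and C, the middle range of the members, 27.0% held the half-site, 8.03% the Egr site, 2.92% the full CRE and 1.19% the CArG box. In the same range the TATA box was in 3.34% and the AP-1 site in 3.55% of windows, both lower than over all windows. These matches describe letters and not binding.

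Depth and purity of the cells bear on every value below. The gene molecules ranged from 1021 in cell 1 and 3393 in cell 6 to 26466 in cell 5, with a median of 9573. A level is given as molecules per 10000 gene molecules of the cell, with an exact 95% Poisson interval that covers counting error only. For a count of 0 the limit is 3 molecules, which is 29.4 per 10000 in cell 1, 8.84 in cell 6 and 1.13 to 4.19 in the others. Cells 4, 5, 7 and 8 each held at least 3 markers of a cell type other than neurons at 2 or more molecules. Of 8 endothelial markers, cell 4 held all 8 with 118 molecules, cell 7 held 6 with 55, Pecam1 and Kdr being at 0, and the other cells had 0 to 3 molecules. Blood markers had 2507 molecules in cell 4 and 0 elsewhere. Of 8 oligodendrocyte markers, cell 5 held all 8 with 422 molecules, and the other cells had 0 to 2 molecules. Cell 8 held 7 of 8 ependymal and tanycyte markers with 341 molecules, Rax being at 0, and 4 of 8 astrocyte markers with 29. The other cells had 0 to 18 and 0 to 7 molecules of these 2 lists. No microglial marker had a molecule. All 9 cells held neuron markers, from 36 molecules in cell 8 to 295 in cell 5, but Meg3, a long non-coding RNA, led this list over the cells together. Of the 10 neuron markers, 3 were found in cell 1, 4 in cell 6, 6 in cell 4, 7 in cells 7 and 8, and 8 to 10 in the others. Meg3 and Snhg11 gave 61 and 11 of 73 molecules in cell 1, 33 and 4 of 41 in cell 6 and 75 and 56 of 140 in cell 7. The part of these other cells in the results below was not tested.

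A large share of the members' molecules came from 4 genes. The members had 765 molecules in all, and 31 of the 34 had at least 1. Fos, Egr1, Jun and Fosb together held 49.3% of them. At least 1 molecule was found in 5 or more cells for 14 members (41.2%), against 7.00% of all symbols, while 17 were found in fewer cells and 3 had no molecule at all (58.6% of all symbols had none). Of symbols with 5 or more molecules, 42.7% reached 5 cells, and 14 of the 26 members with that many molecules did (53.8%), a share near this background. With every cell thinned to 1021 molecules, 3 members reached 5 cells. At 2 or more molecules in 5 or more cells there were 9 members, against 2.64% of all symbols. Without cells 4, 5, 7 and 8, 11 members were found in at least 3 of 5 cells. For this count and the thinned count the share of all symbols was not computed. Ordered by molecules per kb of the longest annotated coding transcript, Fos remained first, followed by Jun and Egr1, and 9 of the first 10 members by molecules were also among the first 10 per kb.

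**Figure D1:**
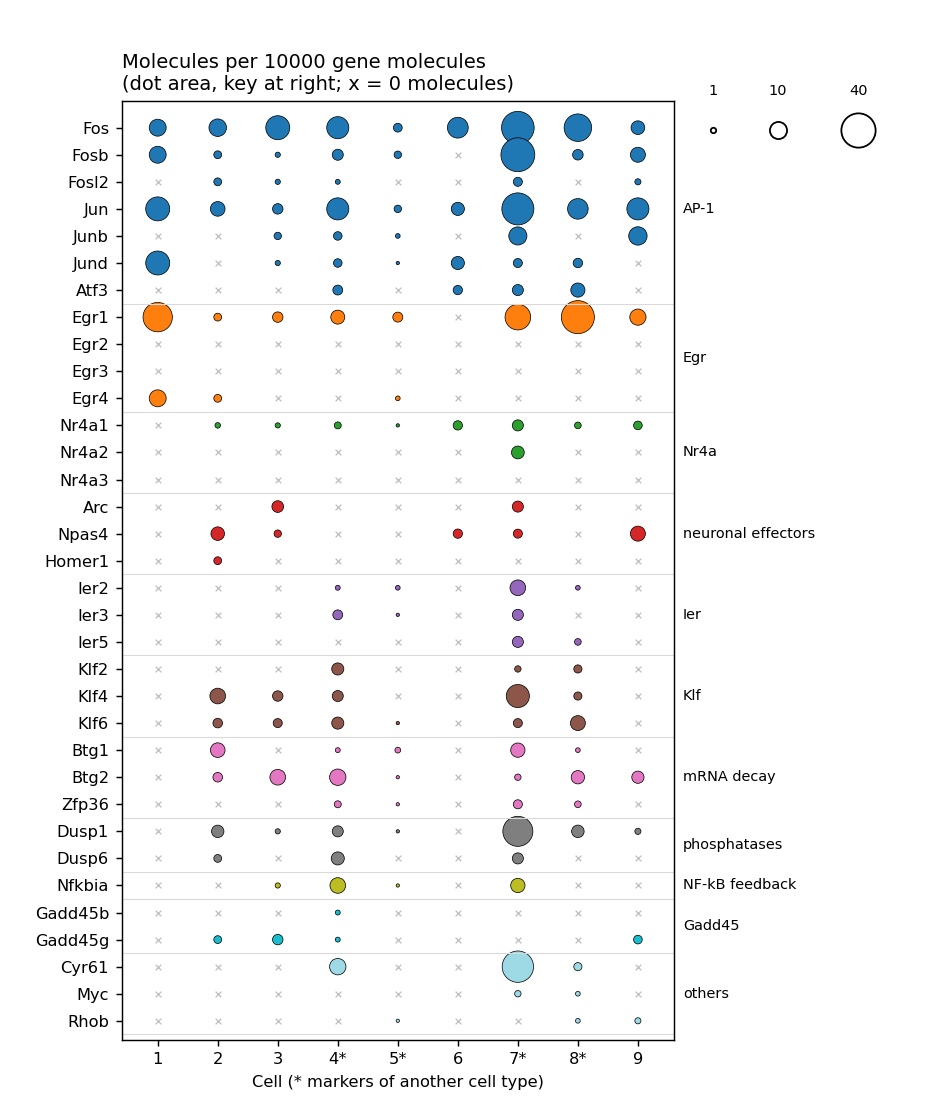
Level of each of the 34 genes (rows, by family) in each of the 9 cells (columns). Dot area is molecules per 10000 gene molecules, crosses are counts of 0, and asterisks mark cells with markers of another cell type. Fos and Jun have a dot in all 9 cells, the Ier genes only in cells 4, 5, 7 and 8, and the largest Fosb, Dusp1 and Cyr61 dots lie in cell 7.

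Among the AP-1 genes, Fos (chromosome 12, 85473890 to 85477273, plus strand, GRCm38/mm10) had 1, 10, 21, 20, 7, 5, 26, 34 and 5 molecules in cells 1 to 9. Its level was highest in cell 7, at 36.3 per 10000 (interval 23.7 to 53.2), and lowest in cell 5, at 2.64 (1.06 to 5.45), although cell 5 was the deepest. Cells 8, 3 and 4 stood at 25.8 (17.9 to 36.1), 19.6 (12.1 to 29.9) and 16.6 (10.2 to 25.7), with intervals that overlap one another and that of cell 7. Jun (chromosome 4, 95049034 to 95052222, minus strand), its main partner, had 2, 7, 4, 20, 5, 2, 25, 19 and 13 molecules. Jun was again highest in cell 7, at 34.9 (22.6 to 51.5), and lowest in cell 5, at 1.89 (0.613 to 4.41). The cell 7 interval overlaps those of cell 4, at 16.6 (10.2 to 25.7), and cell 9, at 16.6 (8.84 to 28.4). It also overlaps that of cell 1, which rests on 2 molecules. Cell 3, high for Fos, had a low Jun level of 3.73 (1.02 to 9.54).

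Fosb (chromosome 7, 19302696 to 19310051, minus strand), a Fos paralog, was concentrated in 1 cell. Its molecules were 1, 2, 1, 5, 5, 0, 28, 5 and 6 in cells 1 to 9. Cell 7 stood at 39.1 per 10000 (26.0 to 56.5), and among the other cells above 5000 molecules the highest was cell 9, at 7.67 (2.81 to 16.7), with an interval below that of cell 7. Junb, which encodes another Jun protein and a weaker activator than Jun, had 0, 0, 2, 3, 2, 0, 8, 0 and 9 molecules. It was highest in cells 9 and 7, at 11.5 (5.26 to 21.8) and 11.2 (4.82 to 22.0), and cell 8, with 19 Jun molecules, had none, which limits Junb there to 2.28 per 10000. Jund, the Jun gene that resting cells express, had 15 molecules in 7 cells and at most 4 in any. Fosl2 had 7 molecules in 5 cells. Atf3, a stress-induced bZIP partner of Jun, had 4, 1, 3 and 9 molecules in cells 4, 6, 7 and 8 and none elsewhere.

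Egr1 stood out in another cell than Fosb. Its molecules were 3, 2, 4, 8, 9, 0, 16, 49 and 7 in cells 1 to 9, so that 50% of the 98 molecules lay in cell 8. The level was 37.2 (27.5 to 49.2) in cell 8 and 22.3 (12.8 to 36.3) in cell 7, with overlapping intervals, and 8.94 (3.60 to 18.4) or less in cells 2, 3, 4, 5 and 9. Cell 1, at 29.4, rests on 3 molecules (6.06 to 85.9). The other Egr genes contributed little: Egr4 had 5 molecules, in cells 1, 2 and 5, and Egr2 and Egr3 had none, which limits each to 0.328 per 10000 over the 9 cells together. The Nr4a genes were low. Nr4a1 had 13 molecules spread over 8 cells at 1 to 3 each, Nr4a2 had 4, all in cell 7, and Nr4a3 had none.

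The neuronal members were distributed differently from most other families. Npas4, a transcription factor that in the brain is largely restricted to neurons and responds to calcium influx, had 0, 6, 2, 0, 0, 1, 2, 0 and 6 molecules in cells 1 to 9. Cells 9 and 2 were highest, at 7.67 (2.81 to 16.7) and 6.27 (2.30 to 13.6) per 10000. None was found in cell 5, despite its depth, in cell 4 or in cell 8, which limits Npas4 there to 1.13, 2.50 and 2.28. Arc, whose product acts at synapses, had 5 molecules in cell 3 and 3 in cell 7. Homer1, a postsynaptic scaffold gene, had 2 molecules in cell 2, and the table does not separate its short activity-induced isoform. Of the 27 molecules of these 3 genes, 18.5% lay in cells 4, 5, 7 and 8, all of them in cell 7, against 72.9% of the molecules of all members and 64.4% of all gene molecules. This was not particular to the neuronal members, since the 2 Gadd45 genes had 20.0% of their 10 molecules in those cells.

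Members that lay wholly in cells with markers of another cell type were chosen with their values in view. Of the 26 members with 5 or more molecules, 6 had every molecule in cells 4, 5, 7 and 8 (23.1%, against 10.2% of symbols with that many molecules), and none had every molecule in the other 5 cells (1.81% of symbols). These were Cyr61, Klf2, Zfp36, Ier2, Ier3 and Ier5. Cyr61 (named Ccn1 in the annotation), which encodes a secreted matrix protein, had 11, 24 and 3 molecules in cells 4, 7 and 8. These are 9.15 (4.57 to 16.4), 33.5 (21.5 to 49.9) and 2.28 (0.470 to 6.65) per 10000, and the limit for a count of 0 in cells 2, 3, 5 and 9 was 1.13 to 3.83. Klf2, a Krüppel-like factor known from endothelium exposed to flow, had 6, 1 and 3 molecules in the same cells. Both endothelial-marker cells thus held Cyr61 and Klf2, and so did cell 8, which had no endothelial marker molecule. Ier2 had 10 molecules with 6 in cell 7, Ier3 had 8 in cells 4, 5 and 7, and Ier5 had 5 in cells 7 and 8.

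The 2 other Krüppel-like factors also reached cells without such markers. Klf4 had 0, 8, 4, 5, 0, 0, 13, 3 and 0 molecules in cells 1 to 9. It was highest in cell 7, at 18.2 per 10000 (9.67 to 31.0), then in cell 2, at 8.36 (3.61 to 16.5), and its limit in cell 5 was 1.13. Klf6 had 0, 3, 3, 6, 1, 0, 2, 10 and 0, with 7.59 (3.64 to 14.0) in cell 8 and 0.378 (0.00957 to 2.11) in cell 5. Neither was found in cell 9, where the limit was 3.83. Of the stress-sensor genes, Gadd45g had 2, 4, 1 and 2 molecules in cells 2, 3, 4 and 9, and Gadd45b had 1. Rhob, a small GTPase gene, had 3 molecules and Myc had 2.

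The genes that end the response did not follow one pattern. Dusp1, the nuclear phosphatase of MAP kinases, had 0, 5, 1, 5, 1, 0, 22, 7 and 1 molecules in cells 1 to 9. Cell 7 stood at 30.7 (19.3 to 46.5) per 10000, and the next, cells 8 and 2, stood at 5.31 (2.14 to 10.9) and 5.22 (1.70 to 12.2), below its interval. Dusp6, a cytoplasmic phosphatase of MAP kinases, had 2, 7 and 3 molecules in cells 2, 4 and 7. Btg2, an anti-proliferative gene whose product recruits the deadenylase complex, had 0, 3, 9, 11, 1, 0, 1, 8 and 4. Its level was 9.15 (4.57 to 16.4) in cell 4 and 8.39 (3.84 to 15.9) in cell 3 but only 1.40 (0.0354 to 7.78) in cell 7, where Dusp1 was highest. Btg1 was led by cell 2 with 7 molecules and cell 7 with 5, and Zfp36, which binds AU-rich mRNA, had 7 molecules at 1 or 2 in each of cells 4, 5, 7 and 8. Nfkbia, the inhibitor that NF-kB itself induces, had 10 molecules in cell 4 and 5 in cell 7, or 8.32 (3.99 to 15.3) and 6.98 (2.27 to 16.3) per 10000, and 1 each in cells 3 and 5. Cell 8 had none, a limit of 2.28.

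Summed over the 34 members, the level was 97.9, 66.9, 59.6, 114, 16.6, 35.4, 297, 124 and 72.8 per 10000 in cells 1 to 9. The median was 72.8, which is 0.728% of a cell's molecules. Cell 7 (interval 259 to 340) lay above every other cell, and cell 5 (12.1 to 22.3) lay below every other cell except cell 6 (18.3 to 61.8), whose interval it overlaps. Cells 2, 3 and 9 had overlapping intervals. Cells 7 and 8 together held 49.3% of the members' molecules and 22.3% of all gene molecules. Cell 7 is one of the cells with endothelial markers and cell 5 is the one with oligodendrocyte markers, so the highest and the lowest level both came from cells with markers of another type. Over the 5 other cells the range was 35.4 to 97.9 with a median of 66.9. Mitochondrially encoded genes took 34.2% of molecules in cell 6 and 22.6% in cell 4, and globin rows took 30.3% in cell 4. With both left out of the total, cell 4 stood at 241, cell 7 at 344 and cell 8 at 149 per 10000. Per 1000 spike-in molecules, cell 7 was again highest, at 102.7, but cell 9 came next at 92.8 and cell 5, at 20.1, stood above cells 1 and 6, at 4.93 and 5.95. Cell 9 had 614 spike-in molecules and was alone on lane 4, against 1962 to 2184 in the others, so its lane and this value cannot be told apart.

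**Figure D2:**
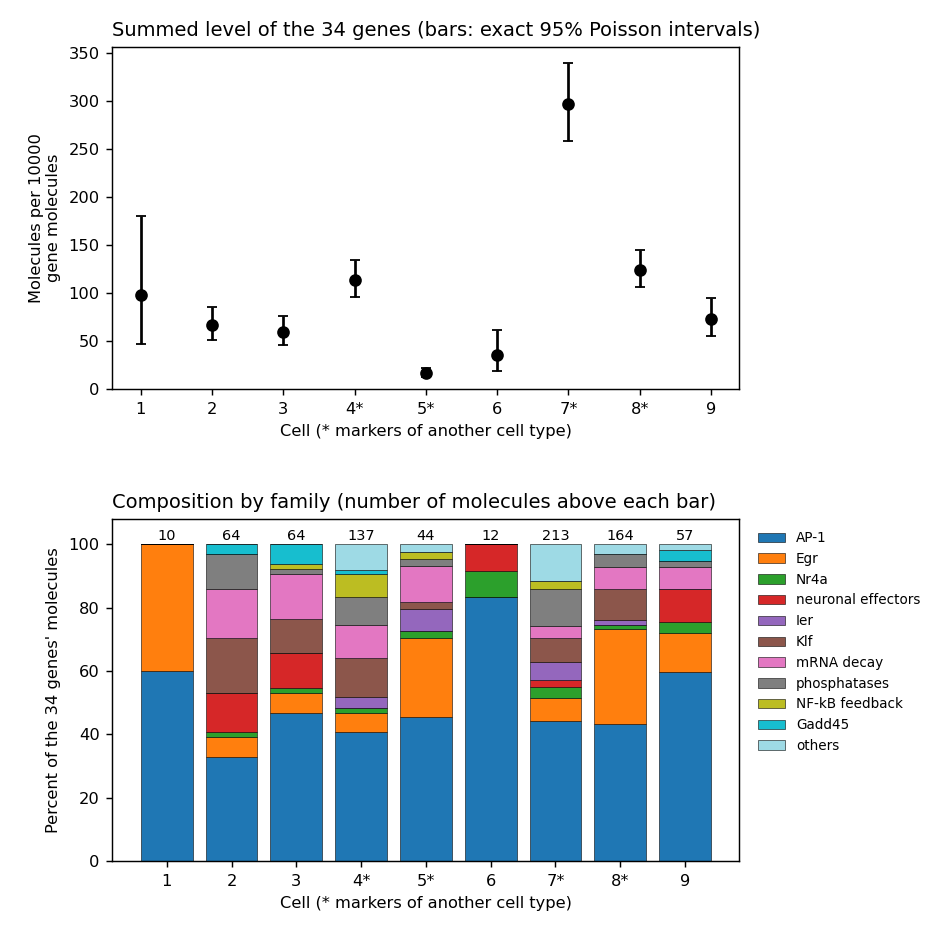
Upper panel: summed level of the 34 genes in each cell, with exact 95% Poisson intervals. Lower panel: share of each family in the members' molecules of the cell, with their number above each bar. Cell 7 stands at 297 per 10000 and cell 5 at 16.6, while the AP-1 share lies between 32.8 and 83.3%.

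Over all the cells the AP-1 share ranged from 32.8 to 83.3%, and the summed level from 16.6 to 297 per 10000. In the cells without markers of another type the share had the same range, and the summed level ran from 35.4 to 97.9. A share is bounded and a level is not, so their spreads were not ranked. The AP-1 genes made up a median of 45.5% of a cell's member molecules. The share was 44.1% (exact Clopper-Pearson interval 37.4 to 51.1) in cell 7 and 45.5% (30.4 to 61.2) in cell 5, the cells with the highest and the lowest summed level. It was lowest in cell 2, at 32.8% (21.6 to 45.7), and highest in cell 6, at 83.3% (51.6 to 97.9) on 12 molecules. The Egr share was 29.9% (23.0 to 37.5) in cell 8 and 25.0% (13.2 to 40.3) in cell 5. It was lower in cell 4, at 5.84% (2.55 to 11.2), and in cell 7, at 7.51% (4.35 to 11.9). Decay, phosphatase and NF-kB feedback genes together took 26.6% (16.3 to 39.1) and 26.3% (19.1 to 34.5) in cells 2 and 4, 17.8% (12.9 to 23.7) in cell 7 and 10.98% (6.64 to 16.8) in cell 8. Within that group, phosphatases took 11.7% (7.74 to 16.8) and the decay genes 3.76% (1.64 to 7.27) of member molecules in cell 7. In cell 3 the values were 1.56% (0.0396 to 8.40) and 14.1% (6.64 to 25.0). A lower share was not a lower level. Per 10000 gene molecules the whole group was highest in cell 7, at 53.1 (37.6 to 72.8), with 17.8, 29.9 and 13.7 in cells 2, 4 and 8. The decay genes stood at 11.2 (4.82 to 22.0) in cell 7 and 8.39 (3.84 to 15.9) in cell 3, with overlapping intervals.

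Pairs of members within a cell do not depend on its total, and only differences between cells are read from them, since gene length is not accounted for. Fos took 84.0% (63.9 to 95.5) of the Fos and Jun molecules in cell 3 and 27.8% (9.69 to 53.5) in cell 9, intervals that do not overlap. These are the highest and the lowest share, chosen with their values in view. Cell 9 was alone on lane 4, so cell and lane cannot be told apart in this contrast. In cells 4, 7 and 8 the value was 50.0 to 64.2%. Egr1 took 59.0% (47.7 to 69.7) of Egr1 and Fos molecules in cell 8 and 16.0% (4.54 to 36.1) in cell 3. Fosb took 51.9% (37.8 to 65.7) of Fosb and Fos molecules in cell 7, against 12.8% (4.30 to 27.4) in cell 8 and 4.55% (0.115 to 22.8) in cell 3.

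**Figure D3:**
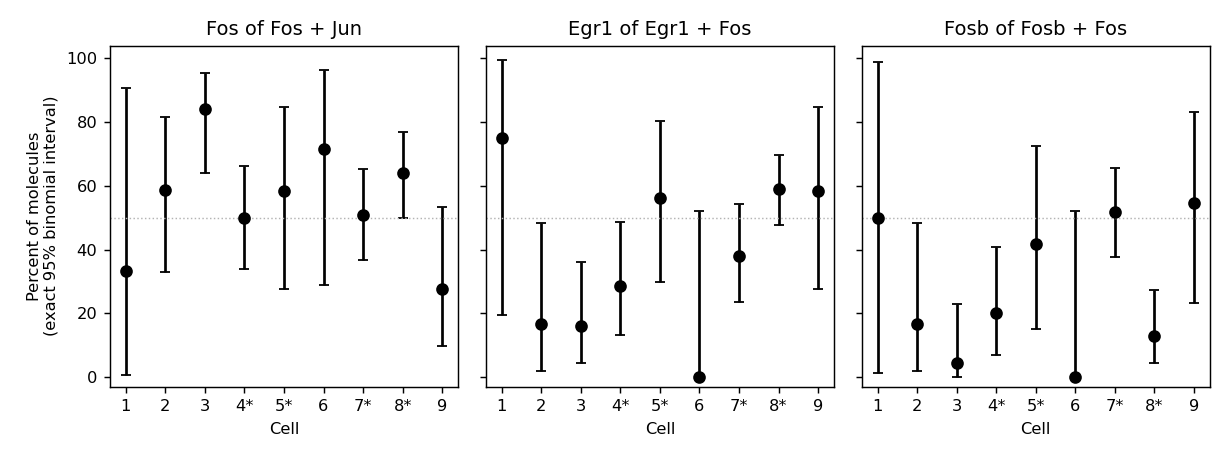
Share of one gene in the molecules of a pair, by cell, with exact 95% binomial intervals. Asterisks mark cells with markers of another cell type and the dotted line is at 50%. Fos leads Jun most in cell 3, at 84.0%, and the Fosb share is 51.9% in cell 7 and 12.8% in cell 8.

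Unevenness was measured for symbols with 9 or more molecules as a dispersion ratio, the chi-square of the 9 counts against equal shares of every cell's total divided by its degrees of freedom. A value near 1 is what counting error alone gives on average. In cell 1, the shallowest, the count expected of a rare gene is below 1, so a few molecules there can lift the ratio. Jund, at 4.03, was highest in cell 1, on 2 molecules. Of the 20 members that had enough molecules, 19 had a ratio above 2, against 48.1% of the 2062 symbols. The median was 4.58 for these members and 1.93 for the symbols, and 9.01 and 2.52 among those with 20 to 150 molecules. Cyr61 had the highest ratio, 22.7, followed by Fosb at 19.3, Egr1 at 16.1 and Dusp1 at 15.5. Fos and Jun, found in every cell, still reached 8.70 and 9.33, whereas Nr4a1 stood at 0.953. Within the 5 cells without markers of another type, 8 members had 9 or more molecules. A ratio above 2 was found for 5 of them (62.5%), Fosb, Jun, Junb, Egr1 and Klf4, against 46.5% of 735 symbols. With so few members, no difference is read from these shares. Without cell 7 the count was 17 of 19, against 48.0% of symbols, and Fosb was no longer above 2.

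**Figure D4:**
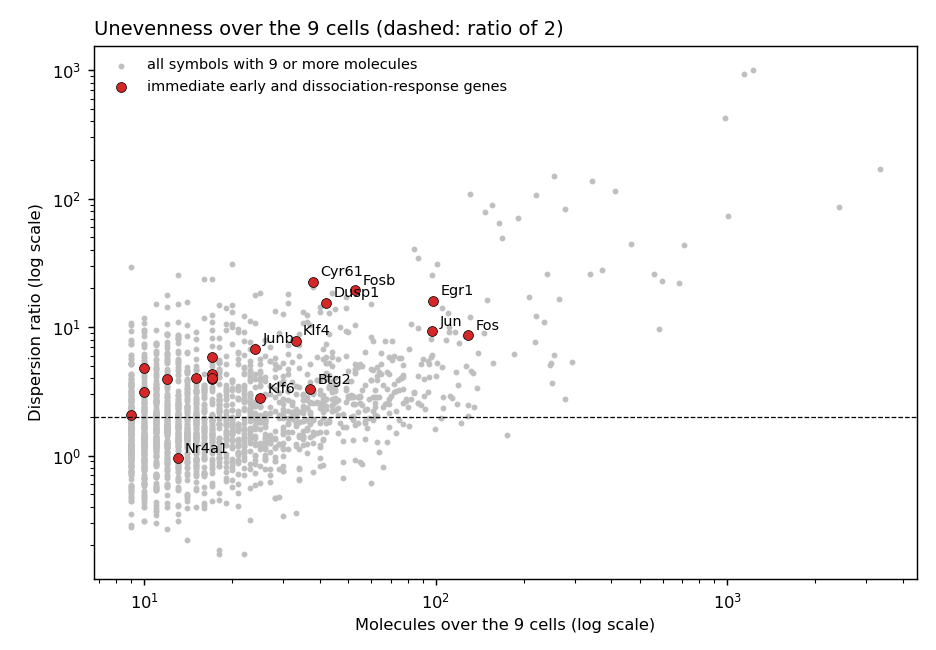
Dispersion ratio against molecules over the 9 cells, both on log scales, for 2062 symbols (grey) and the 20 members with 9 or more molecules (red). All red points but Nr4a1, at 0.953, lie above the dashed line at 2.

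The cell in which each of these 20 members was highest also differed from the rest of the table. It was cell 7 for 8 members, against 8.78% of symbols, cell 4 for 4, against 5.04%, cell 8 for 3, against 9.31%, and cell 9 for 2, against 18.7%. Cells 1, 2 and 3 led for 1 member each, against 7.76, 15.7 and 11.1% of symbols. Cells 5 and 6 led for none, against 12.8 and 10.9%.

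Other genes of the pathway, in the lists of this paragraph, were found in 5 or more cells less often than the members. Most of them had fewer than 5 molecules, and the comparison was not matched for molecules. The heat shock genes, given further below, went the other way, with 4 of 6. At most 3 of each list are named, those with the most molecules. Over all symbols, 58.6% had no molecule and 7.00% were in 5 or more cells, the shares to set beside the counts below. Of symbols with 5 or more molecules, 42.7% were in 5 or more cells. Of 10 other bZIP factors, 5 had a molecule, and 1 of these, Atf4 of the integrated stress response, was found in 5 or more cells with 8 molecules. None of 12 upstream factors, such as Srf and Creb1, was in 5 or more cells, and 8 had a molecule in fewer. Elk3, Crem and Rela led with 6, 4 and 3 molecules. Among the kinases of the pathway, Map2k1, which acts in the MAP kinase cascade, had 23 molecules in 4 cells. Of 11 further feedback genes, 8 had a molecule and 1 was in 5 or more cells. Zfp36l1, a paralog of Zfp36, had 6, 2, 9 and 4 molecules in cells 4, 6, 7 and 8, and Tob1, of the Btg family, had 2, 2 and 7 in cells 5, 7 and 8. Of 16 further rapid targets, 14 had a molecule and 4 were in 5 or more cells. They summed to 32.1 per 10000 in cell 7, the highest, and 4.66 in cell 3. Plk2 had 28 molecules in 7 cells, Ppp1r15a, which restarts translation after stress, had 22 in 5, with 9 in cell 7, and Rgs2 had 20 in 5, with none in cell 7.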

How the data were processed

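The deposited table holds counts, as molecules per gene or spike-in row, for the 9 cells. Bowtie and mm10 are named in the submitters' processing notes. The strand setting and the way duplicate reads were collapsed are not given in the sources used here; reads of a gene and its antisense partner may be mixed. Columns were assigned by the cell number in their names, and 0 were left unassigned. Each symbol took its largest locus row per cell, and every member had 1 row. Totals exclude spike-ins. Intervals are exact at 95% (Poisson for counts, Clopper-Pearson for shares). The members and lists were chosen with earlier results of these data known. All 34 members are named, and those with 20 or more molecules are given in every cell. Cells are not replicates, so no p-value was computed across them, and Dixon's ratio served only to flag values. The dispersion step was tested on simulated data. Gene positions are from GENCODE M21 and promoters from RefSeq (GRCm38.p6). Alternatives were other totals, spike-in scaling, detection at 2 or 3 molecules, thinning to 1021 molecules and leaving out cells. Scripts ran in Python 3.11.15 with scipy 1.17.1, pandas 2.3.3 and numpy 2.4.6, and plots were drawn with matplotlib 3.10.9. Part of the kinase list is not reported here.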

Additional observations from a re-analysis of the deposited data

Results flagged for a closer look

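Dixon's ratio, the distance of the highest or lowest cell from its neighbour over the whole range, passed its 95% critical value in 13 of 33 measures taken over the 9 cells. That value is set to flag about 1 in 20 groups of normally distributed replicates. These counts, from cells of unlike depth and markers, are not such replicates, so the rate need not hold here. Measures that share genes are also not independent. In 11 of the 13 the far cell was cell 7, which also held 55 molecules of endothelial markers, whose part in these values was not tested. Per 10000 gene molecules, cell 7 stood at 39.1 for Fosb, 8.38 for Ier2, 18.2 for Klf4, 30.7 for Dusp1 and 33.5 for Cyr61. The nearest other cells stood at 9.79, 0.832, 8.36, 5.31 and 9.15. By family, cell 7 stood at 131 for the AP-1 genes, 9.78 for the Nr4a genes, 16.8 for the Ier genes, 34.9 for the phosphatases and 34.9 for Cyr61, Myc and Rhob together, and at 297 for all members, with 124 in the nearest cell. In the other 2 measures, Klf2 was far in cell 4, at 4.99, and Jund in cell 1, at 19.6, where it rests on 2 molecules.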

How the results depend on the processing

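The cells form 1 sample. No paired analysis was possible because there is a single group. The count of 14 members in at least 5 cells was 9 and 6 when detection required 2 or 3 molecules, and 3 after thinning every cell to 1021 molecules. Thinning gave a median summed share of 0.979% in place of 0.728%, and 3 of 4 members above a dispersion ratio of 2. That count of 19 was 5 (of 8 with enough molecules) without the 4 cells with markers of another type and 4 of 4 at a minimum of 45 molecules, where fewer genes qualify. Relative to the median cell, the summed level per spike-in molecule was 0.165, 2.34, 0.674, 0.199, 3.44, 2.52 and 3.11 in cells 1, 4, 5, 6, 7, 8 and 9. Per gene molecule these cells stood at 1.34, 1.56, 0.228, 0.486, 4.08, 1.71 and 1.00. Without mitochondrial genes in the total, cell 4 stood at 1.93. Leaving out each cell in turn gave 14 to 19 members in at least 4 of 8 cells, a median share of 0.698 to 0.854% and an AP-1 share of 44.8 to 46.2%. It also gave 15 to 19 members above the ratio of 2, of 16 to 20 with enough molecules. The median AP-1 share was 59.65% without the 4 cells with markers of another type. It was 60% after thinning, over 5 cells with 10 or more member molecules. Leaving out the cells under 5000 gene molecules, chosen after seeing the data, gave 18 members in at least 4 of 7 cells and 18 of 20 above the ratio. No share of all symbols was computed for the counts of detected members at 3 molecules, after thinning or with cells left out. Nor was one computed for the dispersion counts after thinning, at 45 molecules or with cells left out. The exceptions were the counts without cell 7 and without the 4 cells with markers of another type, given above. Over all symbols the median ratio was higher at 20 to 150 molecules, 2.52, than at 9 or more, 1.93. Cells 1 and 6 held 10 and 12 member molecules, so absences there carry little information.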

Other observations

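The heat shock genes, which dissociation also induces in many tissues, were ordered differently over the cells from the immediate early genes. All 6 genes listed were found, 4 of them in 5 or more cells (7.00% of all symbols were), with 355 molecules. Their sum per 10000 was 54.8 in cell 5, the lowest cell for the immediate early genes, and 12.6 in cell 7, the highest. Cells 2, 3, 4, 8 and 9 lay between 31.1 and 41.0, and cell 6 stood at 11.8, with no molecule in cell 1. Hspa8, a constitutive Hsp70 chaperone gene, had 249 of the molecules, while the inducible Hspa1a had 22. Per 10000, cell 6 led for Hspa1a at 11.8, resting on 4 molecules, followed by cell 4 at 8.32. Cells 5, 3 and 9 stood lower, at 1.89, 1.86 and 1.28, and cells 1, 2, 7 and 8 had no Hspa1a molecule. Of 8 delayed neuronal targets, 1 was in 5 or more cells, 4 in 1 to 4 and 3 in none (58.6% of all symbols were in none). They summed to 58.8 per 10000 in cell 9, 24.2 in cell 3 and 5.59 in cell 7. Scg2, a granin gene, gave 105 of their 145 molecules, and Nrn1, the neuritin gene, had 10, 5, 2 and 9 molecules in cells 3, 5, 8 and 9. No difference between these orders was tested.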
